A study of Homo sapiens with 22 samples.

Results

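Bidirectional promoters are stretches of DNA from which a gene on the minus strand and a gene on the plus strand are transcribed away from each other. They were taken here as every pair of protein-coding genes of chromosomes 1 to 22, in the GENCODE annotation of the human genome build hg38, in which the 5′ end of a minus-strand gene lies 0 to 1000 bp to the left of the 5′ end of a plus-strand gene. The rule gave 861 pairs with 1659 member genes, which is 8.68% of 19111 protein-coding genes, and 62 of these genes belong to more than 1 pair. The distance between the starts ranged from 1 to 995 bp with a median of 131 bp, and it was at most 100 bp in 334 pairs, over 100 and up to 300 bp in 362 and above 300 bp in 165.

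The measurements are insertions of a piggyBac self-reporting transposon in K562 cells, an established human leukemia line grown in suspension. This transposon carries its own promoter, and its transcript runs on into the neighbouring genome, so that an insertion is read out from RNA with its position and orientation. The cells received the donor Barcoded-PBase-SRT-Puro together with a helper plasmid that supplies the transposase, either hyPBase (labelled WTHYPB, 10 libraries) or hyPBase-centrip (labelled WTHYPBcentrip, 10 libraries), and were then selected with puromycin. A transfection with the donor alone is described and was not analysed here, no library carries a transcription factor fused to the transposase, and what distinguishes hyPBase-centrip is not given in the sources used here. A further 2 libraries, whose labels name different helpers, entered no comparison. The labels describe transfections and RNA combined in sets of 3, and they do not say whether every library came from transfections of its own, so the p-values measure the spread between these libraries.

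Genes that share such a promoter often belong to DNA repair, mitochondrial or housekeeping functions, and their common interval is usually a CpG island without a TATA box. RNA polymerase II loads at both edges of the interval, and active chromatin marks flank it on both sides. The unfused piggyBac transposase inserts at TTAA and is known to favour active promoters and enhancers.

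The shared intervals held few target sites. The intervals between the starts together spanned 160154 bp and held 299 TTAA sites, which is 1.87 per kb. The genome held 6.54 TTAA per kb, the 1 kb upstream of single-direction starts held 4.40, and the 1 kb upstream of CpG-rich single-direction starts held 3.75. These windows are longer than most intervals, and in the 300 bp next to the start the values were 3.22 for single-direction and 2.02 for CpG-rich single-direction genes, the latter close to that of the pairs. Single-direction genes are the 14274 protein-coding genes with no other protein-coding 5′ end within 5 kb, and 7791 of them were CpG-rich, with a CpG observed over expected of at least 0.6 and a GC content of at least 50% within 500 bp of the start. In 672 of the 861 pairs (78.0%) there was no TTAA between the starts, so that no insertion could be recorded there. The sequences of 3 such intervals are shown because 2 are textbook pairs and the other is the only collagen pair among the members, with every CG in capitals (plus strand of hg38, read from the reference genome). PPAT and PAICS encode enzymes of purine synthesis, SARS2 and MRPS12 a mitochondrial seryl-tRNA synthetase and a protein of the mitochondrial ribosome, and COL4A4 and COL4A3 chains of basement membrane collagen.
PPAT/PAICS, chr4:56435616-56435740: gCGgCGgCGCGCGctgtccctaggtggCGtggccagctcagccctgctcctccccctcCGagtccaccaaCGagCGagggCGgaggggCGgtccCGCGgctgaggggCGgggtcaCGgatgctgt
SARS2/MRPS12, chr19:38930764-38930943: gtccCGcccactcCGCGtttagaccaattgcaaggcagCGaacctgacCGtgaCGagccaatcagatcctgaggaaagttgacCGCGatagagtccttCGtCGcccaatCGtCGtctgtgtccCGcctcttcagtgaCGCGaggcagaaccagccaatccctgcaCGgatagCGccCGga
COL4A4/COL4A3, chr2:227164454-227164623: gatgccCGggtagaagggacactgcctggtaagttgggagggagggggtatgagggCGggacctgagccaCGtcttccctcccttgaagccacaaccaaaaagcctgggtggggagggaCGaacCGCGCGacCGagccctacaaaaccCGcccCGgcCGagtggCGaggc
These intervals of 125, 180 and 170 bp held 15, 18 and 12 CG dinucleotides and 0 TTAA.

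Of the member genes 88.6% were CpG-rich against 54.6% of the single-direction genes. The median CpG observed over expected was 0.78 around the member starts and 0.67 around single-direction starts, and the median GC content was 61.7% and 58.9%. Short promoter motifs were searched on both strands in 300 bp around the middle of each pair, and in 300 bp around each single-direction start (250 bp before to 50 bp after it). The ETS motif CCGGAAG was found in 27.4% of the pairs, 9.75% of the single-direction genes and 15.1% of the CpG-rich ones. The NRF1 core GCATGCGC, bound by a factor that drives mitochondrial genes, was found in 9.29%, 3.06% and 4.92%. CCAAT was found in 40.7%, 35.3% and 34.1%, the GC box GGGCGG in 70.9%, 50.6% and 76.2%, and TATAAA in 4.99%, 12.2% and 5.71%. None of these motifs is contained in another. The window of a pair at most 300 bp apart can hold both starts, and that of the 165 wider pairs holds neither. The window of a single-direction gene holds 1 start, and the part of this in the shares was not tested. These shares describe the sequences, and the occupancy of the motifs was not measured.

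Depth ranged from 1469581 to 3500656 insertions on chromosomes 1 to 22 per library, and all of them lay on a TTAA. Density is given throughout as a fold, which is the insertions per TTAA site in a zone over the insertions per TTAA site of all TTAA sites of chromosomes 1 to 22 in the same library. Zones inside a gene start at its 5′ end and stop at its 3′ end where the gene is shorter than the zone. In the first 5 kb of the member genes, which held 40121 TTAA sites, hyPBase gave a density of 3.74-fold ± 0.062 and hyPBase-centrip one of 3.70-fold ± 0.078 (SD, n = 10 each). The lowest of the 20 libraries stood at 3.63, the median at 3.70 and the highest at 3.89. At TTAA sites 25 to 100 kb from the pairs the density was 1.71-fold ± 0.018 (SD, n = 20), so every library was denser at the member genes than in their surroundings. Of the TTAA sites in the first 5 kb of members 73.9% were hit in at least 1 library, against 49.0% of all TTAA sites. In the first 5 kb of single-direction genes 64.9% were hit, and in that of CpG-rich single-direction genes 69.4%.

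The first 5 kb of single-direction genes had a density of 2.82-fold ± 0.040 (SD, n = 20) and that of CpG-rich single-direction genes 3.23-fold ± 0.062. Member genes exceeded single-direction genes 1.31-fold with hyPBase and 1.32-fold with hyPBase-centrip, in 10 of 10 libraries each (exact two-sided sign-flip permutation test on the log2 ratio, adjusted p = 0.00205 over 22 tests). The p before adjustment was 0.00195, the smallest that 10 libraries can give. Against CpG-rich single-direction genes the excess was 1.14-fold and 1.16-fold, again in 10 of 10 libraries each (exact sign-flip permutation test, adjusted p = 0.00205). Members had a larger part of their TTAA sites in the first 2 kb, 14248 of 40121. The values were 110048 of 324795 for single-direction and 55274 of 183997 for CpG-rich single-direction genes. Since density fell with distance from the start, this raises the pooled ratio by an amount that was not tested.

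The density was highest close to the start. From 0 to 250 bp into the member genes the density was 7.87-fold ± 0.49, and from 250 to 500 bp it was 10.3-fold ± 0.60 (SD, n = 20). It then declined to 7.005-fold ± 0.28 from 500 to 1000 bp, 4.07-fold ± 0.11 from 1500 to 2000 bp and 2.12-fold ± 0.056 from 4000 to 5000 bp. In the bin from 250 to 500 bp the member genes exceeded CpG-rich single-direction genes 1.36-fold with hyPBase and 1.37-fold with hyPBase-centrip, in 10 of 10 libraries each (exact sign-flip permutation test, adjusted p = 0.00233 over 80 tests). In the bin nearest the start the order was the other way, at 0.902-fold and 0.910-fold, with members lower in 10 of 10 libraries of each helper (exact sign-flip permutation test, adjusted p = 0.00233). From 3000 to 4000 bp the ratio to CpG-rich genes was 0.989 with both helpers, with members lower in 7 of 10 hyPBase libraries (exact sign-flip permutation test, adjusted p = 0.172) and in 8 of 10 hyPBase-centrip libraries (adjusted p = 0.00845). The bins nearest the start rest on few sites, 608 from 0 to 250 bp and 1108 from 250 to 500 bp, which held 13438 and 32003 insertions over the 20 libraries.

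**Figure D1:**
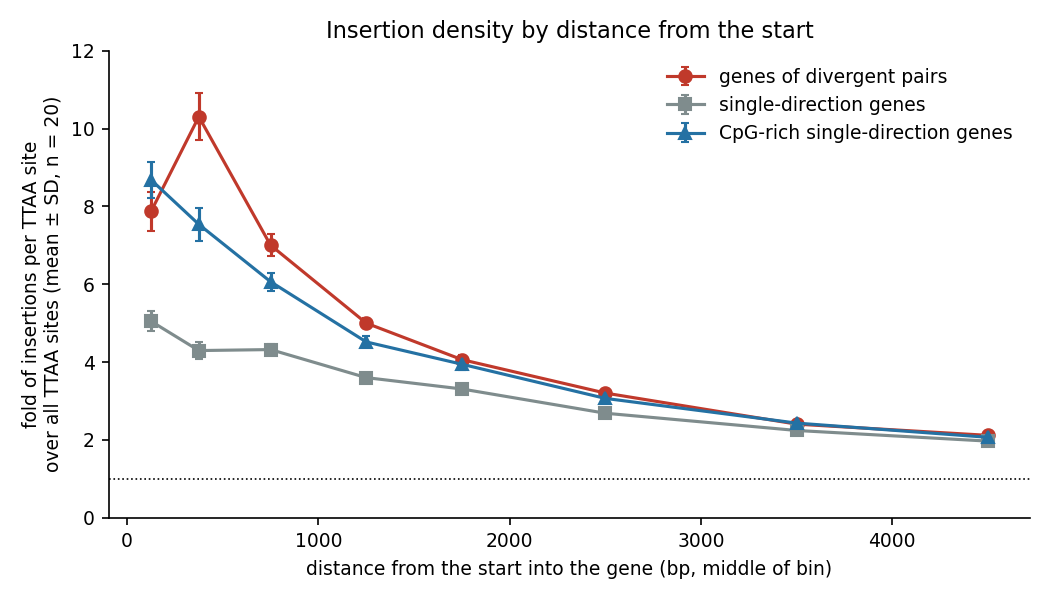
Fold of insertions per TTAA site over all TTAA sites (y axis) against the distance from the start into the gene in bp (x axis, middle of each bin), as mean ± SD of 20 libraries, for genes of divergent pairs, single-direction genes and CpG-rich single-direction genes. The member genes peak at 10.3-fold from 250 to 500 bp and fall to 2.12-fold from 4000 to 5000 bp, and the dotted line marks the level of all TTAA sites.

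The orientation of the insertions also set the members apart from other genes. Same-strand insertions are those in the orientation of the gene, and their share is given in percent. Within 500 bp of the start it was 51.5% ± 1.5 in the member genes (SD, n = 20), with the lowest library at 49.4%, the median at 51.4% and the highest at 54.7%. In single-direction genes it was 32.1% ± 0.60 over the same distance, and in CpG-rich single-direction genes 26.7% ± 0.87 with the highest library at 28.3%, so the groups did not overlap. The difference from CpG-rich single-direction genes was 24.8 percentage points ± 1.7, between 22.3 and 29.8 in the 20 libraries (exact two-sided sign-flip permutation test within each helper, p = 0.00195, the smallest possible with 10 libraries). The difference from all single-direction genes was 19.4 points ± 1.7 (exact sign-flip permutation test, p = 0.00195). With barcodes collapsed, so that a position and orientation counts once per library, the member share was 49.7% and the CpG-rich share 33.2%, and the difference was 16.5 points. With canonical transcript starts for both groups of genes it was 21.6 points, from 47.3% ± 2.0 and 25.8% ± 1.0. Under the same rule canonical starts gave a different set of 957 pairs, which held 539 (62.6%) of the 861. The member value rests on 1716 TTAA sites with 45441 insertions, of which the 10 most hit sites held 7.73%, and it was 49.3% ± 1.3 without those sites. Against 50% the share was 0.87 points higher with hyPBase, in 7 of 10 libraries (exact sign-flip permutation test, p = 0.0527), and 2.13 points higher with hyPBase-centrip, in 10 of 10 (p = 0.00195), which the removal of those sites brought to 48.6% and 50.1%.

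The share in the member genes depended on the distance from the start. It was 53.2% ± 1.8 from 0 to 250 bp, 50.8% ± 2.1 from 250 to 500 bp, 43.3% ± 1.7 from 500 to 1000 bp, 37.2% ± 2.1 from 1000 to 1500 bp and 31.7% ± 1.9 from 1500 to 2000 bp (SD, n = 20). From 4000 to 5000 bp it was 28.0% ± 1.0. In CpG-rich single-direction genes no bin was above 31.3%. The member share exceeded that of CpG-rich single-direction genes by 29.8 and 28.4 points from 0 to 250 bp with hyPBase and hyPBase-centrip (exact sign-flip permutation test, adjusted p = 0.00233) and by 2.69 and 2.18 points from 4000 to 5000 bp (exact sign-flip permutation test, adjusted p = 0.00233 and 0.00440). Against all single-direction genes the sign changed along the gene, from 23.9 and 22.6 points higher in the bin nearest the start to 1.602 and 1.904 points lower from 4000 to 5000 bp (differences of -1.602 and -1.904, exact sign-flip permutation test, adjusted p = 0.00233).

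The first bases of one gene of a pair are also the upstream side of its partner. Upstream of single-direction starts, where there is no annotated protein-coding partner, the share of insertions in the orientation of the gene was 27.2% ± 0.87 within 500 bp (SD, n = 20), and upstream of CpG-rich ones it was 23.6% ± 1.1. It approached 50% further out, with 42.0% ± 1.4 from 1000 to 1500 bp and 49.9% ± 0.52 from 2000 to 3000 bp. On both sides of a single-direction start the insertions thus lay mostly against the orientation of the gene. In the first 500 bp of the members, pooled over all genes, the orientations were close to equal. Such a pooled share does not show that each gene was balanced. The same orientation in excess on both sides of a pair can also give a pooled share near 50%. Shares of single genes over 500 bp were not computed. Whether the partner gene caused the difference was not tested.

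**Figure D2:**
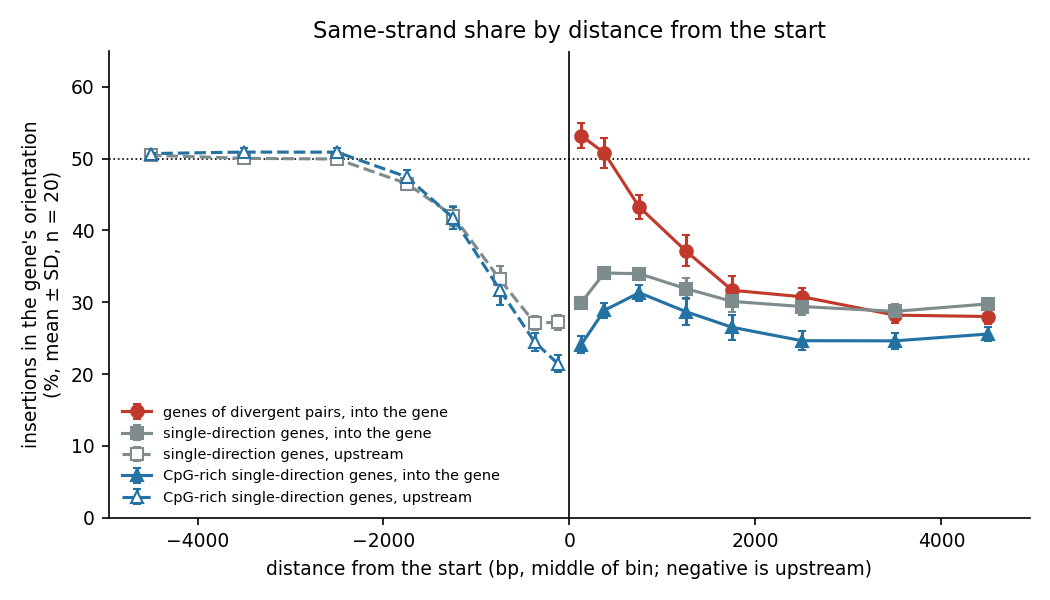
Percent of insertions in the orientation of the gene (y axis) against distance from the start in bp (x axis, middle of each bin, upstream distances negative), as mean ± SD of 20 libraries. Member genes start at 53.2% and fall to 28.0% at 4000 to 5000 bp, while the single-direction genes stay at or below 34.1% inside the gene, dip to 27.2% just upstream and return to 50% beyond 2000 bp upstream.

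The shares were alike in close and wide pairs. Within 500 bp of the start the same-strand share was 51.5% ± 2.2 in genes of pairs at most 100 bp apart, 51.3% ± 1.7 in those over 100 and up to 300 bp apart and 52.5% ± 2.1 in those above 300 bp (SD, n = 20). The densities there were 10.3-fold ± 0.76, 9.67-fold ± 0.56 and 6.99-fold ± 0.44, so the density was lowest for the widest pairs. No test was run between these classes, which share the libraries. Over the first 5 kb the densities were 3.58-fold ± 0.079, 3.84-fold ± 0.073 and 3.64-fold ± 0.090 from the closest to the widest class.

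Over the whole first 5 kb hyPBase gave a same-strand share of 34.5% ± 1.1 and hyPBase-centrip one of 36.7% ± 0.49 (SD, n = 10 each), below 50% in 10 of 10 libraries each (exact sign-flip permutation test, adjusted p = 0.00205). It was 4.85 and 5.34 points above that of single-direction genes, and 9.06 and 9.15 points above that of CpG-rich ones, each in 10 of 10 libraries (exact sign-flip permutation test, adjusted p = 0.00205). The difference from single-direction genes, 5.10 points over the 20 libraries, kept its sign but was 2.24 with canonical transcript starts, 2.99 with barcodes collapsed, 2.83 in a 10 kb window and 8.82 in a 2 kb window. In the 1417 member genes with no gene of any kind on the other strand in their first 5 kb the share was 34.9% ± 1.5 (SD, n = 20). The minus-strand genes stood 1.81 points above the plus-strand genes with hyPBase, and 2.18 points above them with hyPBase-centrip (exact sign-flip permutation test, adjusted p = 0.00205).

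Few insertions could be seen between the starts, and the values there depended on a handful of sites. The density was 6.37-fold ± 0.31 with hyPBase and 6.31-fold ± 0.56 with hyPBase-centrip (SD, n = 10 each), from 161 to 370 insertions per library. Of the 299 TTAA sites 218 (72.9%) were hit at least once, 14 were hit in all 20 libraries, and the 10 most hit sites held 44.6% of the 5296 insertions. This density was 1.14-fold that of the 1 kb upstream of single-direction starts with both helpers, in 10 of 10 libraries each (exact sign-flip permutation test, adjusted p = 0.00205). The direction reversed against CpG-rich single-direction starts, at 0.721-fold and 0.723-fold, lower in 10 of 10 libraries each (exact sign-flip permutation test, adjusted p = 0.00205). It also reversed, on the log2 scale, to -0.37 with the 696 pairs whose starts were at most 300 bp apart. With the starts of canonical transcripts the log2 ratio was -0.20. Those starts gave 957 pairs, of which 539 were among the 861. No direction is thus given for this ratio. The plus-orientation share between the starts was 45.6% ± 3.2 with hyPBase (SD, n = 10, exact sign-flip permutation test against 50%, adjusted p = 0.00391) and 45.5% ± 2.2 with hyPBase-centrip, but 50.2% with barcodes collapsed and 49.5% without the 10 most hit sites, so it does not hold as a difference from 50%.

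The 6 sites with the most insertions are shown with 30 bases on each side and the TTAA in capitals (plus strand of hg38), because together they carried much of the signal between the starts, and each was hit in 20 of 20 libraries. PATL2/B2M holds the gene of the light chain of MHC class I, TEX14/RAD51C and RAD52/ERC1 each hold a gene of homologous recombination, ZBTB8OS/RBBP4 a histone-binding protein, UBQLN4/LAMTOR2 a subunit of the lysosomal Ragulator complex and PRRT1/PPT2 a lysosomal thioesterase.
PRRT1/PPT2, chr6:32153253-32153316: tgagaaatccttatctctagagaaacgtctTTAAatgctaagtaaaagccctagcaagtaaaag
PATL2/B2M, chr15:44711322-44711385: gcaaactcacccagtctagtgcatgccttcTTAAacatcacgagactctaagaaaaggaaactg
ZBTB8OS/RBBP4, chr1:32650879-32650942: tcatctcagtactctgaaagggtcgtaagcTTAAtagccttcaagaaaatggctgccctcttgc
TEX14/RAD51C, chr17:58692273-58692336: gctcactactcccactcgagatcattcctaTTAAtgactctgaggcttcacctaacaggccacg
RAD52/ERC1, chr12:990207-990270: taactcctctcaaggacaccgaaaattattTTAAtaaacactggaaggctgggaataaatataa
UBQLN4/LAMTOR2, chr1:156054319-156054382: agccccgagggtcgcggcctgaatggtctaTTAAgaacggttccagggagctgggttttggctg
The PRRT1/PPT2 site held 408 insertions over the 20 libraries, of which 34 were in plus and 374 in minus orientation. The PATL2/B2M site held 313, with 16 in plus and 297 in minus orientation. The TEX14/RAD51C and UBQLN4/LAMTOR2 sites leaned the other way, with 236 of 261 and 199 of 216 in plus orientation. The ZBTB8OS/RBBP4 and RAD52/ERC1 sites were mixed, with 173 of 265 and 132 of 222 in plus orientation. Single sites were thus strongly oriented in either direction while their sum was near balance.

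**Figure D3:**
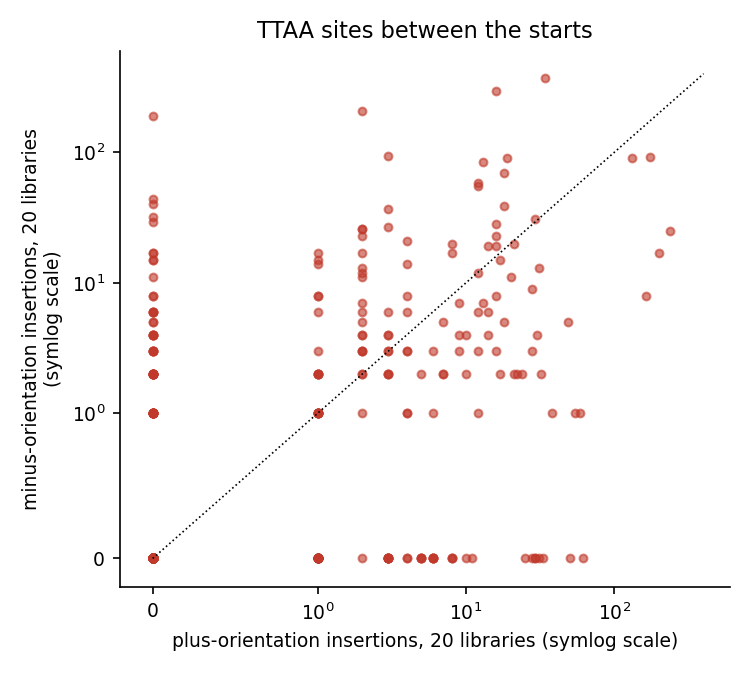
Each point is 1 of the 299 TTAA sites between the starts, with its plus-orientation insertions (x axis) and minus-orientation insertions (y axis) summed over 20 libraries, on symmetric log scales that are linear below 1. The most hit sites lie on both sides of the dotted line of equal counts, such as 34 plus against 374 minus at the PRRT1/PPT2 site and 236 plus against 25 minus at the TEX14/RAD51C site.

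Among the pairs with at least 2 TTAA sites between the starts, 5 pairs had the highest density there. TEX14/RAD51C and IGBP1C/RAD51C, which share the same 2 TTAA sites, stood at 47.6-fold over the mean of 20 libraries, with the lowest library at 30.4, the median at 48.7 and the highest at 65.9. UBQLN4/LAMTOR2 stood at 40.9-fold, between 22.8 and 67.8. PMEL/RAB5B, which holds a melanosome gene and a small GTPase gene, stood at 28.4-fold, between 15.1 and 46.3. RAD52/ERC1 stood at 19.95-fold, between 12.5 and 29.9. In all of them the interval exceeded both flanking genes, as for TEX14/RAD51C with 0.93-fold in the first 5 kb of TEX14 and 2.98-fold in that of RAD51C. These pairs were chosen for the density of the interval, so this is a description. A single TTAA site held 261 of the 266 insertions between TEX14 and RAD51C, and another 216 of the 223 between UBQLN4 and LAMTOR2.

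The pairs differed widely in density over the interval and both first 5 kb together. The mean of 20 libraries had a median of 2.67-fold over the 860 pairs with a TTAA site, a 25th percentile of 1.42 and a 75th of 4.73, and it reached 10.6 at the 95th. It was above 1 in 734 pairs (85.3%), above 1 in every one of the 20 libraries in 505 and below 1 in every one in 36. The first 5 kb of member genes had a median of 2.21-fold, against 1.18-fold for single-direction genes and 1.35-fold for all protein-coding genes. The 86 pairs with the most insertions held 35.7% of the 453273 insertions summed over pairs. In this sum the window of a gene in more than 1 pair counts more than once.

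Of the pairs with at least 10 TTAA sites, UBE2D3/CISD2, which encodes a ubiquitin-conjugating enzyme and an iron-sulfur protein of the endoplasmic reticulum, was the densest at 25.4-fold, between 23.01 and 28.5 in the 20 libraries. RHOF/SETD1B, which holds the gene of a histone H3K4 methyltransferase, followed at 24.4-fold (18.4 to 30.5), then the histone pair H2BC11/H2AC11 at 22.5-fold (18.4 to 26.7), STX10/IER2 at 21.4-fold (16.4 to 27.1) and the histone pair H3C12/H2BC17 at 20.9-fold (15.02 to 28.0). Their ranges overlapped, so these neighbours in the order are not told apart. In both histone pairs the signal came from 1 annotated gene, since the window of H2AC11 and that of H2BC17 held no TTAA site.

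The sparsest pairs stayed below 0.35-fold in every library. SRGAP2B/FAM72D, genes with near-identical copies elsewhere on the chromosome, had 1 insertion over 20 libraries at 56 TTAA sites, and how far reads could be placed there was not tested. ZNF829/ZNF568 had 11 insertions at 57 TTAA sites, with a mean of 0.064-fold and a highest library of 0.28-fold. ZNF891 with ZNF10, and ZNF891 with the overlapping ENSG00000256825, had 15 insertions at 78 TTAA sites, 0.067-fold on average. TSPAN19/LRRIQ1 had 30 insertions at 112 TTAA sites, 0.10-fold on average. The ZNF genes named here encode zinc finger proteins, a family in which many members repress transposable elements.

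The pairs known from textbooks that met the rule lay above the median of all pairs. NPAT/ATM, a regulator of histone gene transcription and the kinase that signals DNA breaks, stood at 6.57-fold with 5.12 in the lowest library, 6.71 in the median and 8.10 in the highest. PPAT/PAICS stood at 5.25-fold (4.22, 5.37 and 6.37) and SARS2/MRPS12 at 5.29-fold (2.83, 5.20 and 7.65). SKA2/PRR11, with a kinetochore protein and a cell cycle protein, stood at 11.5-fold (9.30, 11.6 and 13.0). None of these 4 pairs had a TTAA between the starts. In contrast COL4A4/COL4A3, named after its values were seen, stood at 0.36-fold, between 0 and 0.61 in the 20 libraries.

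The orientation differed within these pairs too. In PPAT/PAICS both genes held mostly opposite-strand insertions, with a same-strand share of 5.57% in PPAT and 1.48% in PAICS. In NPAT/ATM the share was 56.5% in NPAT and 4.30% in ATM. In SKA2/PRR11 it was 29.0% in SKA2 and 71.6% in PRR11, and in SARS2/MRPS12 14.8% in SARS2 and 71.8% in MRPS12. In these last 2 pairs the insertions were mostly in plus orientation on both sides of the promoter.

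The genes of a pair often differed in density. Of the 684 pairs in which both windows had at least 5 TTAA sites and both together at least 100 insertions, the denser gene exceeded the sparser at least 2-fold in 373 (54.5%) and at least 10-fold in 38, and the median ratio was 2.14. The same gene was denser in all 20 libraries in 305 pairs, in 151 of them the minus-strand gene and in 154 the plus-strand gene. Across these pairs the densities of the partners had a Spearman correlation of 0.19, as a description over pairs that share libraries and, in some cases, genes. In ENTR1/PMPCA, 16 bp apart, the endosomal gene ENTR1 had 0 insertions at 6 TTAA sites and PMPCA, a subunit of the mitochondrial processing peptidase, had 197 at 25, which is at least 15.8-fold higher taking 3 counts over the 20 libraries as the floor. In RNF41/NABP2 the values were 0.45-fold in RNF41, a ubiquitin ligase gene, and 28.4-fold in NABP2, a single-stranded DNA binding protein gene, with 13 and 1105 insertions. In ATP6V1E1/BCL2L13 they were 0.75-fold and 34.3-fold, with 46 and 2079 insertions. MAN2B1/WDR83 and C17orf114/PLD2 had 3 against 121 and 108 against 2 insertions. In each of these 5 pairs the same gene was denser in 20 of 20 libraries, and they were chosen for this ratio, so it is a description.

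**Figure D4:**
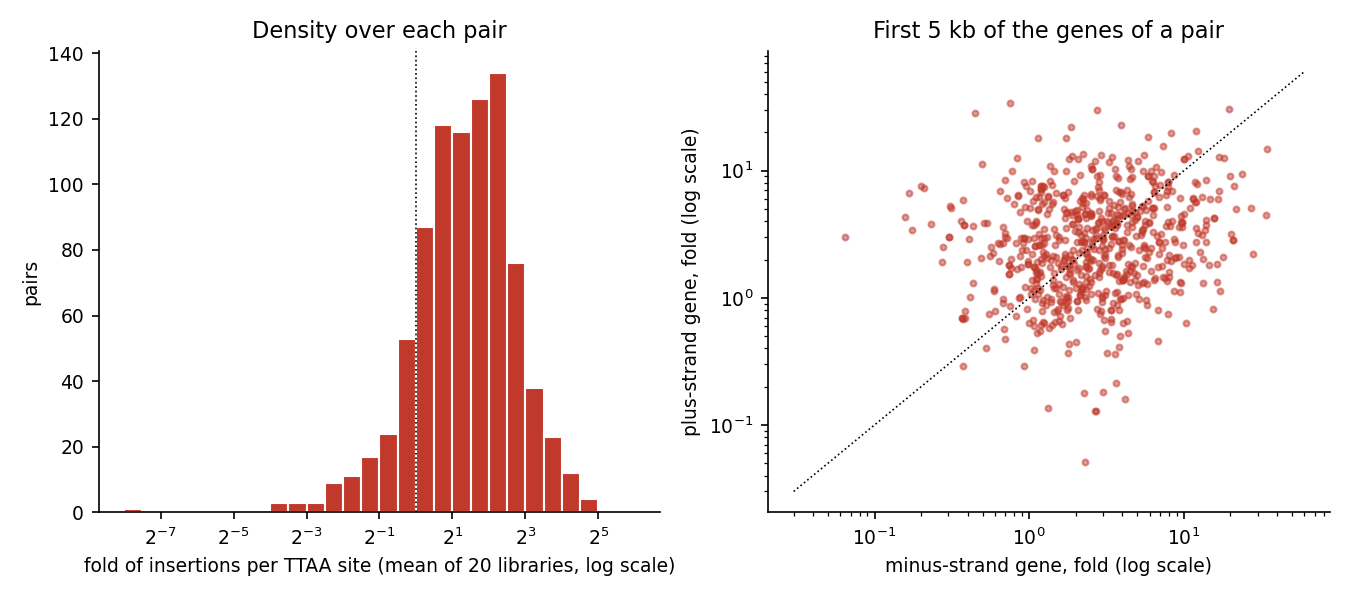
Left, number of pairs (y axis) by fold of insertions per TTAA site over the interval and both first 5 kb (x axis, log scale, mean of 20 libraries, pairs with no insertion left out), with the dotted line at 1. Right, fold in the first 5 kb of the minus-strand gene (x axis, log scale) and of the plus-strand gene (y axis, log scale) for the 683 compared pairs with both sides above 0, where the dotted line marks equal density and the points spread widely around it.

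Orientation was then tested gene by gene with edgeR (quasi-likelihood test of same-strand against opposite-strand insertions in the first 5 kb, library as a block, Benjamini-Hochberg adjusted p below 0.05), over the 5123 protein-coding genes in which 10 or more libraries each had 10 or more insertions. Opposite-strand insertions were in excess in 73.8% of all tested genes and same-strand insertions in 15.4%. Of the 674 member genes tested, 451 (66.9%) had an excess of opposite-strand and 150 (22.3%) an excess of same-strand insertions, and 985 member genes were not tested because they had too few insertions. Among the 995 member genes with at least 100 insertions the median share was 29.8% and 74.0% of the genes were below 50%, against a median of 24.8% and 81.3% below 50% among 5515 single-direction genes with as many.

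The directions in the genes of a pair were then set side by side. In 203 pairs both genes were tested. In 84 pairs (41.4%) both genes had an excess of opposite-strand insertions, which in a divergent pair means insertions pointing towards the shared promoter from both sides. In 78 pairs (38.4%) the directions differed, which means that the same orientation was in excess on both sides, plus in 32 of these pairs and minus in 46. None of the 203 pairs had a same-strand excess in both genes, that is, insertions pointing away from the promoter on both sides. In 37 pairs 1 gene was called. Of all 674 tested members 66.9% had an opposite-strand and 22.3% a same-strand excess. No such count was made for other neighbouring genes, so nothing particular to divergent pairs is read from these shares. Counted without the test, 379 pairs had at least 100 insertions in each gene, and the share was below 50% in both genes in 199, in 1 gene in 171 and in neither in 9.

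The smallest adjusted p-values with opposite-strand excess belonged to WRN, a helicase gene, PDCD10, a gene of vascular integrity, and PARN, a poly(A) ribonuclease gene. WRN had a same-strand share of 0.24% over 1231 insertions, and its highest library stood at 2.50% (edgeR, log2 change -7.81 ± 0.19 (SE), adjusted p = 2.05e-77). PDCD10 had 1.43% of 1466 insertions and PARN 1.90% of 1213, below 50% in 20 of 20 libraries for each of the 3 genes. The genes with same-strand excess at the smallest adjusted p were ACLY, which makes cytosolic acetyl-CoA from citrate, PI4K2B, a lipid kinase, and NIF3L1. ACLY had a same-strand share of 96.1% over 943 insertions with a lowest library of 91.1% (edgeR, log2 change 4.52 ± 0.14 (SE), adjusted p = 1.91e-62). PI4K2B had 97.3% of 731 insertions and NIF3L1 90.5% of 708, above 50% in every library. In the plus-strand gene NIF3L1 and the minus-strand gene ACLY these are opposite orientations on the chromosome.

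Gene groups that often carry bidirectional promoters differed in level. The lists were made by symbol. The median was 12.6-fold over the 19 of 27 member histone genes that had a TTAA in their window. Over all member genes it was 2.21-fold. The histone genes ranged from 0.34-fold in H2AC1, a testis-type histone gene, to 46.4-fold in H2AC17, whose window held only 1 TTAA site. H2BC4 had 3591 insertions at 63 TTAA sites, 20.3-fold. Of the 10 histone genes tested for orientation 4 had an excess of opposite-strand and 3 of same-strand insertions. The latter were H2BC21 (80.2% same-strand), H2AC25 (61.6%) and H3C12 (76.0%). Of all tested genes 73.8% had an opposite-strand and 15.4% a same-strand excess. Nothing particular to histones is read from 10 genes. Windows stop at the annotated gene end, so those of histone genes differ in length and some hold few TTAA sites. A window cut short covers only the bases near the start. Pooled over all members, the density there was 7.87-fold from 0 to 250 bp and 10.3-fold from 250 to 500 bp. The histone median and that of all members are thus not measured alike, and the part of window length was not tested.

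The counts of the following lists stand against 73.8% of all tested genes with opposite-strand and 15.4% with same-strand excess, and nothing particular to a list is read from them. The 14 chaperone genes had a median of 4.22-fold. Of the 8 tested, 7 had an excess of opposite-strand insertions, and HSPB6 had an excess of same-strand insertions. Among the former were CCT5 and CCT6A, subunits of the cytosolic folding chamber, at 11.2% and 6.84% same-strand. DNA replication and repair held 24 member genes with a median of 2.64-fold, 13 of them tested, with 7 in opposite-strand and 3 in same-strand excess. In this list LIG4, a ligase of end joining, had a same-strand share of 56.7% at 10.0-fold. The 17 genes of the mitochondrial ribosome had a median of 2.32-fold, and 5 of 7 tested were in opposite-strand and 1, MRPS12, in same-strand excess. The 18 RNA polymerase and mediator genes had a median of 2.10-fold, with 4 of 6 tested in opposite-strand excess, including POLR2A, which encodes the largest subunit of RNA polymerase II, at 2.60% same-strand, and 1 in same-strand excess, POLR3GL at 72.3%. The 30 zinc finger genes were lower, with a median of 1.58-fold over the 29 with a TTAA, and 6 of 8 tested were in opposite-strand and 1 in same-strand excess. Both collagen genes lay below the level of all TTAA sites, at 0.28-fold and 0.44-fold, and were not tested.

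The study's own contrast is that between the helpers. The densities did not separate them. Between the starts hyPBase-centrip differed from hyPBase by -0.0536-fold (two-sided permutation test with 100000 resamples, 10 against 10 libraries, adjusted p = 0.799 over 5 tests) and in the first 5 kb by -0.0364-fold (adjusted p = 0.330). The libraries overlapped in both measures, although without hyPBase-centrip replicate 3, the highest library in the first 5 kb, the latter difference was -0.0573 with an unadjusted p of 0.0349. The same-strand share in the first 5 kb was 2.17 points higher with hyPBase-centrip (permutation test, adjusted p = 0.000450). The 10 hyPBase libraries ranged from 32.7% to 36.5% with a median of 34.2%, and the 10 hyPBase-centrip libraries from 36.0% to 37.8% with a median of 36.7%, so that the groups overlapped only at their edges. The share moved the same way outside the pairs, from 29.7% ± 0.70 to 31.4% ± 0.48 in single-direction genes and from 25.5% ± 0.77 to 27.6% ± 0.64 in CpG-rich ones (SD, n = 10). The member genes also exceeded single-direction genes by 0.49 points more with hyPBase-centrip than with hyPBase (5.34 ± 0.32 against 4.85 ± 0.48 points, SD, n = 10, permutation test, adjusted p = 0.0340). Against CpG-rich single-direction genes the excess was 9.06 ± 0.42 points with hyPBase and 9.15 ± 0.41 with hyPBase-centrip, closer to each other than their SD, so the larger excess with hyPBase-centrip was not seen against these genes. Reads per insertion moved with the helper as well, from 3.01 to 5.40 in hyPBase and from 2.24 to 3.90 in hyPBase-centrip libraries, and their part in the difference was not tested. With insertions of at least 2 reads only, the difference in same-strand share was 2.32 points.

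**Figure D5:**
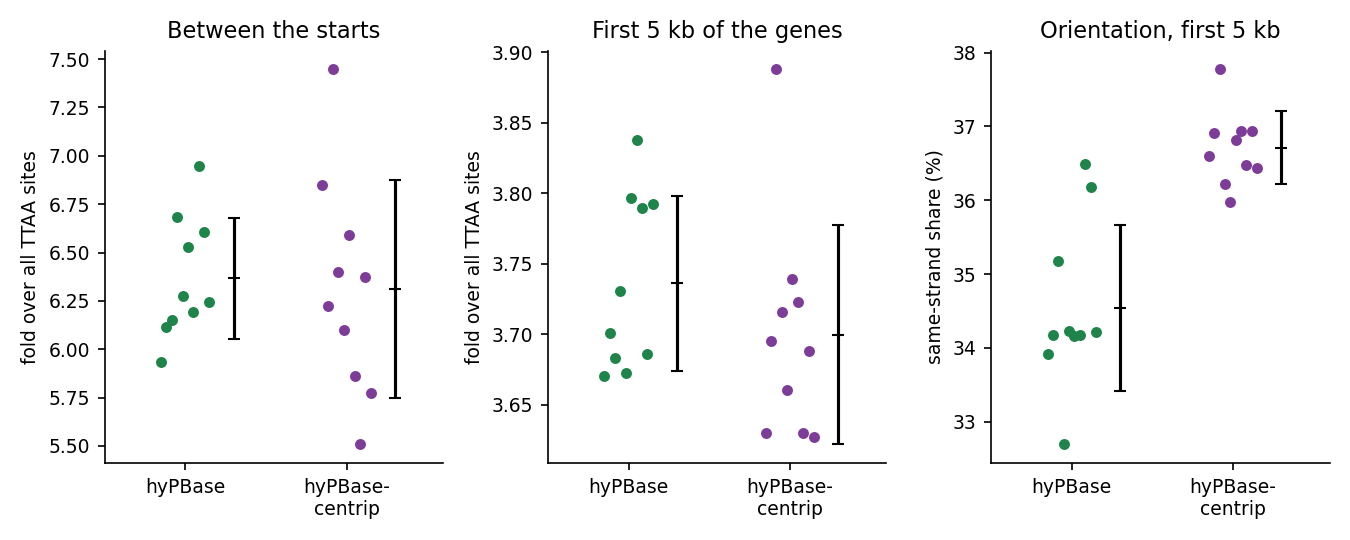
Values of the 20 libraries (points) by helper, with the mean and SD of 10 libraries beside them, for the density between the starts, the density in the first 5 kb of member genes (both as fold over all TTAA sites) and the same-strand share in the first 5 kb in percent. The densities of the helpers overlap, while the same-strand shares lie at 34.5% ± 1.1 and 36.7% ± 0.49.

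Tested gene by gene over the same 5123 genes, 3.1% of all tested genes differed between the helpers (edgeR quasi-likelihood test, adjusted p below 0.05). Of the 674 members tested 20 (2.97%) differed, 11 higher and 9 lower with hyPBase-centrip, a share near that of all genes. With barcodes collapsed edgeR called 0 of 419 members and 0 of 3155 genes in all, with 9 members at an unadjusted p below 0.05. DESeq2 called 7 of 674 members and 56 of 5123 genes in all. The 3 lower genes of smallest adjusted p were RHOF, NUDCD2 and XPO5, the exporter of microRNA precursors. RHOF had a density of 38.4-fold ± 3.5 with hyPBase, between 30.0 and 42.9, and 29.1-fold ± 2.5 with hyPBase-centrip, between 25.4 and 33.5 (SD, n = 10 each, edgeR log2 change -0.37 ± 0.060 (SE), adjusted p = 4.8e-05). NUDCD2 had 4.16-fold ± 0.74 and 2.43-fold ± 0.57. The 3 higher genes were ENSG00000273155, partner of TSGA10, ADAT2, a tRNA deaminase gene, and QRSL1, a gene of mitochondrial tRNA charging. ADAT2 had 4.91-fold ± 0.86 with hyPBase and 6.62-fold ± 0.78 with hyPBase-centrip (edgeR log2 change 0.45 ± 0.099 (SE), adjusted p = 0.00443). In all these genes the ranges of the helpers overlapped.

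In 2 pairs, named after their values were seen, both genes were called, and in opposite directions. In XPO5/POLH, starts 147 bp apart, XPO5 stood at 11.2-fold ± 0.98 with hyPBase and 8.04-fold ± 1.2 with hyPBase-centrip (edgeR log2 change -0.48 ± 0.092 (SE), adjusted p = 0.000694). POLH, a polymerase that copies past ultraviolet damage, stood at 3.52-fold ± 0.73 and 5.35-fold ± 1.5 (edgeR log2 change 0.58 ± 0.16 (SE), adjusted p = 0.0242). In MTERF3/PTDSS1 the mitochondrial transcription regulator MTERF3 went from 6.11-fold ± 0.92 to 4.57-fold ± 0.94 and PTDSS1, a phosphatidylserine synthase, from 4.52-fold ± 0.82 to 6.08-fold ± 0.99 (edgeR adjusted p = 0.0276 and 0.00836). In both pairs the gene that was lower with hyPBase-centrip had an excess of opposite-strand insertions and the gene that was higher an excess of same-strand insertions, so that plus orientation was in excess on both sides of the promoter. In 10 further pairs with both genes tested 1 gene was called.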

How the data were processed

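Calling cards insertions were mapped by the authors to hg38, and their submitters' processing notes name Trimmomatic, BWA and SAMtools, with no versions. The deposited files give for each insertion its position, orientation, barcode and a read count. Each line counted as 1 insertion whatever its reads. Libraries were grouped by helper, 10 each, and held 1469581 to 3500656 insertions on chromosomes 1 to 22, which limits the precision of zones with few TTAA sites. Starts came from GENCODE version 44. Zones were compared within each library by exact sign-flip permutation tests (Python 3.11.15, numpy 2.4.6, scipy 1.17.1), and helpers by permutation. Genes were tested with edgeR 4.0.16 in R 4.3.3, with DESeq2 1.42.0 as an alternative, over all protein-coding genes in which 10 or more libraries each had 10 or more insertions, and scripts were tested on simulated data. Pairs named were the 5 densest, 5 sparsest, 5 densest between the starts, 5 with the largest ratio between their genes and textbook pairs. Genes named were the 3 of smallest adjusted p in each direction of each edgeR test, and others were chosen after their values were seen. The members and lists were chosen with earlier results of these data known. Alternatives varied the reads per insertion, barcodes, starts, windows, background, filter and libraries. The 2 libraries with conflicting labels were left out.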

Additional observations from a re-analysis of the deposited data

Results flagged for a closer look

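The library hyPBase-centrip replicate 3 stood apart from the other 9 of its helper in 4 measures of the member genes. It also held the fewest insertions of its helper on chromosomes 1 to 22, 1594796 against 2287466 to 3500656 in the others. The part of depth in these measures was not tested. In the first 5 kb the density of this library was 3.89-fold, the highest of the 20 libraries. Its log2 ratio to single-direction genes was 0.46 and that to CpG-rich single-direction genes 0.29. Its same-strand share in the plus-strand genes was 37.1%. A gap of this kind was looked for in 28 groups of values and found in these 4, and chance gives it in about 1 in 20 groups. The measures share the same insertions and are not independent. The difference between member and single-direction genes in same-strand share was larger for hyPBase-centrip by 0.49 points (permutation test, two-sided, adjusted p = 0.0340 over 5 tests), and all 20 libraries showed a higher share in the member genes. Against CpG-rich single-direction genes the differences were 9.06 ± 0.42 and 9.15 ± 0.41 points (SD, n = 10 each), closer to each other than their SD.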

How the results depend on the processing

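Of 98 recomputed values 71 counted as the same, 16 moved, 10 changed sign and 1 passed the threshold anew, and the cause was not tested. Tested values counted as the same when they kept their direction and side of the threshold. Folds without a test did so when they lay within the SD of the main value, and counts of called genes when their ratio to the main count was small. Such folds and counts otherwise counted as moved. With insertions of at least 2 reads the densities were 7.04-fold between the starts and 3.81-fold in the first 5 kb, and the helper differences in them turned to 0.277 and 0.0126. With barcodes collapsed the densities were 3.67 and 2.87 and the plus-orientation share between the starts 50.2%. In that setting 0 of 419 tested member genes differed between helpers, as did 0 of 3155 genes in all. In orientation 328 of 419 members (78.3%) were called, against 2516 of 3155 genes in all. With starts at most 300 bp apart the density between them was 4.32, its log2 ratio to upstream of single-direction starts -0.370 and its helper difference 0.0135. With canonical transcript starts the densities were 4.88 and 3.36, that log2 ratio -0.198, the plus share 56.2% and the helper difference between the starts 0.329. This setting used 957 pairs, of which 539 were among the 861. Against CpG-rich genes the log2 ratio was -0.469. Windows of 2 kb and 10 kb gave 5.78-fold and 2.79-fold, the former with a helper difference of 0.0315. Over TTAA sites 25 to 100 kb away the densities were 3.71 and 2.18. Without hyPBase-centrip replicate 3 the helper difference in the first 5 kb was -0.0573 (permutation p = 0.0349). Between helpers DESeq2 called 7 of 674 tested member genes and 56 of 5123 genes in all. No filter called 12 of 1616 members and 96 of 17961 genes in all. In orientation no filter called 1244 of 1616 members (77.0%) and 11768 of 17961 genes in all. With a replicate block 19 of 674 member genes differed between helpers against 20. Of all 5123 genes 153 differed, against 159. Same-numbered libraries had correlations of -0.0468 to 0.108, so the numbers do not pair them. The values of the first 500 bp with barcodes collapsed, with canonical starts or without the 10 most hit sites were chosen after seeing the data. An alternative without repeats was not run, because the reference holds no lower-case bases. Few TTAA sites limit all values between the starts.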
